A study of Homo sapiens with 16 samples.

Results

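The response to a combined DNA-demethylating and histone-deacetylase-inhibiting treatment was described in 4 human T-cell leukaemia lines: Jurkat, CCRF-CEM, and the related lines Molt-3 and Molt-4. Where 4 values follow each other below, they are in the order CCRF-CEM, Jurkat, then Molt-3, then Molt-4. For each line the untreated array was subtracted from the treated array of that line, and this difference was followed over 11963 genes. The 4 lines account for 8 of the 16 arrays of the series, and the other 8 come from 4 lines of anaplastic large cell lymphoma (ALCL), namely Karpas 299, SU-DHL-1, JB6 and FE-PD, handled in the same 2 states. Treated cells received 5-aza-2′-deoxycytidine (5-aza-dC) at 1 µM for 6 days and Trichostatin A (TSA) at 625 nM in the last 24 h, whereas the paired cells of each line were left untreated. RNA was hybridised to Affymetrix expression arrays, with 1 array for each line and state. The lines therefore serve as the replicates, and p-values measure the spread between lines and say nothing of repeat cultures of 1 line. Molt-3 and Molt-4 were established from the same patient, so they are not independent donors. All 4 are leukaemic lines grown in culture, and each holds T cells arrested at an immature stage.

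DNA methylation at the CpG dinucleotides of a promoter and removal of acetyl groups from histones both go with silent chromatin. 5-aza-dC is a cytidine analogue that is built into replicating DNA and traps the DNA methyltransferases there, so that methylation is lost as cells divide, and TSA blocks the zinc-dependent histone deacetylases and lets acetylated histones build up. The treatment is classically used to uncover genes that tumours or somatic tissues keep silent, such as germ-cell antigens and imprinted genes, while T-lineage cells depend on a receptor complex, its kinases and a set of transcription factors that are held active.

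The arrays themselves changed with treatment in every line, and the part of this in the fold changes below was not tested. The SD over genes was 1.82 to 1.87 (log2) on the 4 untreated arrays and 1.5 to 1.73 on the treated ones, so the range of values narrowed. The 3′ minus 5′ difference of the ACTB control probe sets, a sign of RNA quality, was -0.59 to -0.34 untreated and -0.21 to 0.59 treated, higher in each line, and that of GAPDH was 0.0 to 0.13 and 0.1 to 0.43. The 5′ probe set for 28S ribosomal RNA read 7.52 in treated CCRF-CEM and 8.15 in treated Jurkat, but 14.26 in treated Molt-3 and 14.16 in treated Molt-4, against 6.76 to 7.52 untreated. The hybridisation spikes ranged from 8.93 to 9.27 untreated and from 8.92 to 10.29 treated, and centring the arrays on them moved the median change of all genes from 0.14 to -0.54. Defining T-cell markers matched the labels: the mean of 12 was 9.67 to 10.25 in the untreated T-cell lines against 7.06 to 7.69 in untreated ALCL lines, and 3 ALCL markers stood at 6.47 to 6.89 against 10.2 to 11.63. The T-cell marker mean fell to 8.01 to 8.52 with treatment (0 of 12 higher, 8 lower). Over all genes tested 21.7% were called higher and 20.2% lower. Markers of other lineages gave 1 of 5 higher for B cells, 0 of 5 for myeloid cells and 3 of 5 for NK cells. Further counts were 1 of 5 for epithelium, 2 of 5 for mesenchyme, 0 of 2 for erythroid cells and 2 of 3 for ALCL. None of these markers was called lower. In bulk RNA, fewer cells of a kind and less RNA per cell cannot be told apart.

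Treatment changed a large part of the transcriptome, with many small rises and fewer but larger falls. A gene was called at an adjusted p below 0.05 (limma, Benjamini-Hochberg over all 11963 genes), and 5018 genes (41.9%) passed. Of these 2601 (21.7% of all genes) rose and 2417 (20.2%) fell. Among calls of at least 2-fold the balance was different, with 292 genes (2.44%) higher and 1125 (9.4%) lower. At 4-fold there were 49 higher and 145 lower, and at 8-fold 9 higher and 18 lower. The untreated and treated values of the 4 lines did not overlap for 4870 genes (40.7%), among them 1214 of the 1417 genes called at 2-fold. All 4 lines moved the same way for 1390 of those 1417. Well expressed genes carried most of the large falls: of the 2991 genes with the highest mean level 569 fell at least 2-fold and 99 rose, against 69 and 29 of the 2991 with the lowest.

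These counts rest partly on the Molt lines and on the scale. Leaving out Molt-3 left 939 genes higher and 1581 lower, and leaving out Molt-4 left 1023 and 1549, while the counts at 2-fold stayed between 269 and 308 higher and between 909 and 1266 lower over all lines left out. Of the calls 51.8% were rises as deposited, 39.3% after median centring, 38.8% after scaling to a common SD, 39.8% without the lowest genes and 2.1% after spike centring, which called only 63 genes higher. Of the 56 risers named here 28 were still called higher under spike centring and 54 kept a value above 0, and all 81 named fallers were still called lower.

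The lines answered to different degrees. CCRF-CEM had 468 genes up and 883 down by at least 2-fold, Jurkat 441 and 1093, Molt-3 429 and 1410, and Molt-4 650 and 1776. Across genes the changes of Molt-3 and Molt-4 correlated at r = 0.931 and those of the other pairs at 0.657 to 0.74. These values describe how alike the lines are and share each line's 2 arrays, and genes are not independent replicates.

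TKTL1, a transketolase-like gene of the X chromosome that is counted among the cancer-testis antigens, had the highest rise of the called genes. Its log2 level before treatment was 5.86 in CCRF-CEM, 7.41 in Jurkat, 5.52 in Molt-3 and 6.01 in Molt-4, and after treatment 10.46, 12.43, 10.52 and 9.96 in the same order. All treated values lay well above all untreated ones. The difference was 4.64 ± 0.40 (log2, mean of 4 lines and SE of the limma fit), a 24.9-fold rise with an adjusted p of 8.43e-05. This SE, like those below, pools the spread of the change over all 8 lines of the series. DHRS2, a mitochondrial short-chain dehydrogenase, went from 8.19, 8.46, 7.30 and 7.21 to 13.76, 13.29, 10.45 and 10.55, a change of 4.22 ± 0.42. The rises of 5.57 and 4.83 in CCRF-CEM and Jurkat were larger than those of 3.15 and 3.34 in the Molt lines. ID2, an inhibitor of the E-protein transcription factors on which T-cell development depends, rose from 5.18, 6.34, 6.29 and 5.38 to 10.10, 10.45, 10.10 and 8.97 (4.11 ± 0.66, adjusted p = 0.00134). Again no treated line came near an untreated one. The other ID2 probe set rose by 1.80.

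The promoters of these 3 genes, of the linker histone H1-2 and of the interferon-inducible DNA sensor IFI16 are shown because they are the highest risers, the highest histone riser and the lowest faller with a window in the table used. Each is the 300 bases from 250 before to 50 after the RefSeq start site (GRCh38.p14), read 5′ to 3′ on the gene's strand, with CpG dinucleotides in capitals. They lie at chrX:154295545-154295844 (plus strand) for TKTL1, chr14:23629865-23630164 (plus) for DHRS2, chr2:8681806-8682105 (plus) for ID2, chr6:26056421-26056720 (minus) for H1-2 and chr1:159008741-159009040 (plus) for IFI16.
TKTL1: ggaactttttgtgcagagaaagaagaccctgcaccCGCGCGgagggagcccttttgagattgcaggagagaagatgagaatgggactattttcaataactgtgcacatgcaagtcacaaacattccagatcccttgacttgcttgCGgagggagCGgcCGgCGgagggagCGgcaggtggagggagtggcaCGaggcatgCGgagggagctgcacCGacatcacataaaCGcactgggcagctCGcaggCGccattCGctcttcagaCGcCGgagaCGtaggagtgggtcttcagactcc
DHRS2: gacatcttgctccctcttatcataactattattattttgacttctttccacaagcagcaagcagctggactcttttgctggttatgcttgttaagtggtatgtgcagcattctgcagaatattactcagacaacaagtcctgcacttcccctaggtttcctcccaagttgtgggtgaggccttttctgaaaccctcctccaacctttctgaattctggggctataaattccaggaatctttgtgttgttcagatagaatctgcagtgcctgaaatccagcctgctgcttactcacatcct
ID2: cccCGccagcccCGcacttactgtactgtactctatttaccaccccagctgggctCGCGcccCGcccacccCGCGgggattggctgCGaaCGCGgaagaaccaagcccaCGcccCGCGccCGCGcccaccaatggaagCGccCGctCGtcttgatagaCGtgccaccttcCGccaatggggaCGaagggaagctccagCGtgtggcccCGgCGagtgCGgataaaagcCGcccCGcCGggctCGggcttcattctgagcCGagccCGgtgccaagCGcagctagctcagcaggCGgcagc
H1-2: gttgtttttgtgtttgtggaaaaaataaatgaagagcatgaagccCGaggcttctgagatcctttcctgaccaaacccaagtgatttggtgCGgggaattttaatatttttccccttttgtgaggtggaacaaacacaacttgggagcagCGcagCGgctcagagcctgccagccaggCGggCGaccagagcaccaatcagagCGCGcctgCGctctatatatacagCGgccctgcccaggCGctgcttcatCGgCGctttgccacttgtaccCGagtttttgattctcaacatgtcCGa
IFI16: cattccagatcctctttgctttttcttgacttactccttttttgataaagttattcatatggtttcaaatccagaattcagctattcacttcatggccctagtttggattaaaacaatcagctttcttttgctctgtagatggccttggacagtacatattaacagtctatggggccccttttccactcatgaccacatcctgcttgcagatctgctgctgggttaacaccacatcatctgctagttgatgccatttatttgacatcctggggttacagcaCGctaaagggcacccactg
The ID2 window holds 33 CpG, that of TKTL1 18, that of H1-2 15, that of IFI16 1 and that of DHRS2 0. ID2 and DHRS2 rose by similar amounts from windows with the most and the fewest CpG of these 5.

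**Figure D1:**
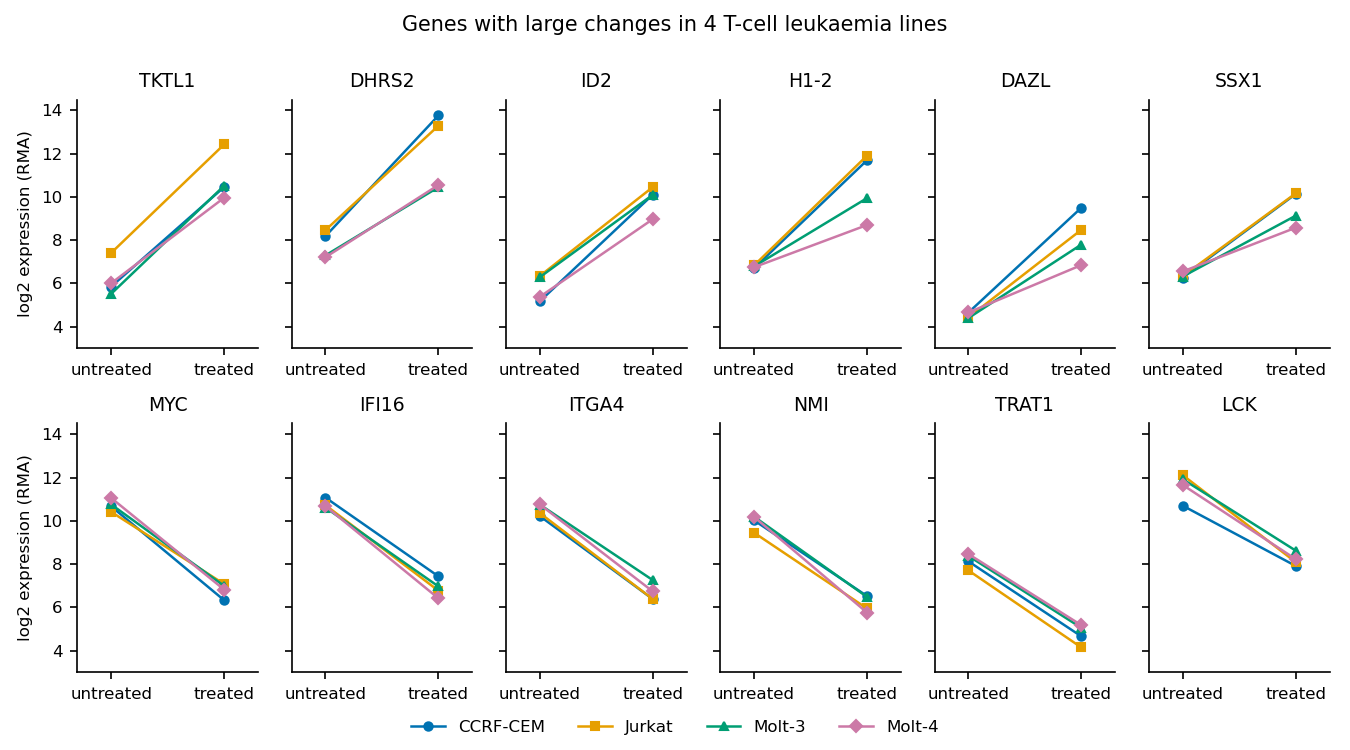
Log2 expression (RMA) in each untreated and treated T-cell line for 6 genes that rose and 6 that fell, 1 point per array and 1 line per cell line. The untreated and treated points do not overlap in any of the 12 panels, and the rises of H1-2 and DAZL are smallest in Molt-4.

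Histone genes stood out among the risers. The replication-dependent core histones, which package new DNA and whose messages normally lack a poly(A) tail, gave 27 of 32 measured members higher and 0 lower, with a median change of 0.83 against 0.14 for all genes. In the mean of the lines 13 passed 2-fold, and line by line 15 of the 32 changed at least that much in CCRF-CEM, 14 in Jurkat, 18 in Molt-3 and 6 in Molt-4. H2BC12 went from 8.52, 7.31, 7.53 and 8.12 to 12.46, 10.90, 9.91 and 9.41 (2.80 ± 0.36, adjusted p = 0.000467), so the rise was 3.93 in CCRF-CEM and 1.29 in Molt-4. H2BC21 rose by 3.07 ± 0.48, H2BC5 by 2.93 ± 0.47 and H2AC17 by 2.68 ± 0.36. H2AC17 differed in pattern, since Molt-3 (3.40) exceeded CCRF-CEM (3.28) while Molt-4 (1.15) was again lowest.

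Linker histones, which bind between nucleosomes, split by gene. H1-2 read 6.71, 6.84, 6.79 and 6.75 untreated and 11.70, 11.91, 9.95 and 8.70 treated, a 13.8-fold rise (3.79 ± 0.49, adjusted p = 0.000461). The testis variant H1-6 rose by 1.57 ± 0.20 from 6.07 to 6.52 untreated to 7.43 to 8.76 treated, but was 0.89 under spike centring (adjusted p = 0.118). Of the 7 linker histones measured 4 were called higher and 0 lower, with a median of 0.48 that was -0.21 under spike centring, where the core histone median was 0.15. Variant histones, which are made outside S phase, did not follow: 2 of 8 were higher and 4 lower (median -0.21). Core histone genes of the clusters are near-identical, so probes can be shared between members and single values are uncertain.

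Cancer-testis antigens, proteins otherwise limited to germ cells and tumours, were mostly higher after treatment. Of 25 measured X-linked members 18 were higher and 0 lower, 10 of them at least 2-fold, and the median was 0.61, or -0.07 under spike centring. SSX1, a transcriptional corepressor known from fusions in synovial sarcoma, went from 6.28, 6.34, 6.32 and 6.55 to 10.13, 10.16, 9.13 and 8.58 (3.13 ± 0.27, adjusted p = 8.1e-05). Its untreated values were nearly equal, and the treated values were highest in CCRF-CEM and Jurkat. The other SSX1 probe set rose by only 0.59. SSX3 rose by 2.49 ± 0.26 from 6.76 to 7.27 untreated to 9.05 to 10.59 treated. MAGEA6 read 4.70, 6.55, 4.60 and 4.80 untreated and 9.20, 10.08, 7.69 and 6.47 treated (3.20 ± 0.41). Untreated Jurkat was already higher than treated Molt-4, so its groups overlapped although each line rose. SSX and MAGEA members are near-identical in sequence, so their values may include signal from relatives.

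Germ-cell and meiosis genes outside the X-linked families moved less. Of 35 measured 13 were higher (37.1%), 0 lower and 3 at least 2-fold higher, against 21.7%, 20.2% and 2.44% of all genes. The median was 0.33, and -0.36 under spike centring. DAZL, an RNA-binding protein of germ cells, was the large exception: it went from 4.66, 4.43, 4.40 and 4.66 to 9.50, 8.48, 7.80 and 6.85, a 12.3-fold rise (3.62 ± 0.43, adjusted p = 0.000341). The untreated values were nearly the same, and the treated ones fell in the order given at the start. TEX15, needed in spermatocytes, rose by 0.81 ± 0.13 and the flagellar gene SPAG6 by 0.69 ± 0.11, both with groups apart but with values near 0 under spike centring (0.13 and 0.01).

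Imprinted genes, expressed from a single parental allele, gave 7 of 22 higher and 3 lower, against 21.7% and 20.2% of all genes (median 0.30, and -0.39 under spike centring). MEST, a hydrolase-like gene expressed from the paternal allele, rose in each line by 1.18 to 1.66 (1.49 ± 0.12, adjusted p = 5.9e-05), yet its groups overlapped because untreated Molt-4 (6.10) was above treated Jurkat (5.96). PEG10, a retrotransposon-derived gene, rose by 1.66 ± 0.26, MAGEL2 by 1.23 ± 0.16 and PEG3 by 1.16 ± 0.21. These 4 calls were lost under spike centring, with adjusted p of 0.168, 0.0788, 0.396 and 0.457.

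Genes known as frequent targets of promoter methylation in tumours did not rise as a group. Of 44 measured 8 were higher and 6 lower, 18.2% and 13.6%, both below the share over all genes, with a median of 0.19 (-0.49 under spike centring). TIMP3, a metalloproteinase inhibitor, rose by 0.78 ± 0.14, but was at 0.10 under spike centring (adjusted p = 0.873). MGMT, which repairs alkylated guanine, fell instead by 0.89 on the log2 scale, from 7.55 to 8.11 untreated to 6.58 to 7.30 treated. The apoptotic protease CASP8 changed by -1.30 ± 0.21 and the glutathione transferase GSTP1 by -1.43 ± 0.27, with GSTP1 at -0.53 in CCRF-CEM, -0.89 in Jurkat, -2.08 in Molt-3 and -2.23 in Molt-4.

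Metallothioneins, small proteins that bind zinc and copper, were mostly higher after treatment, with larger values in CCRF-CEM and Jurkat than in the Molt lines. Of 9 measured 8 were called higher and 0 lower (median 1.37, and 0.68 under spike centring). The list median by line was 1.87 in CCRF-CEM, 2.67 in Jurkat, 0.58 in Molt-3 and 0.43 in Molt-4, and 6, 6, 0 and 0 members passed 2-fold. MT1E went from 9.33, 7.79, 8.24 and 8.29 to 11.91, 11.13, 8.91 and 8.92 (1.80 ± 0.42, adjusted p = 0.00879). Treated Molt-3 and Molt-4 stayed below untreated CCRF-CEM, so the groups overlapped. MT1X (1.63 ± 0.36) and MT2A (1.37 ± 0.32) had changes of 2.34 and 1.77 in CCRF-CEM, 2.92 and 2.67 in Jurkat, 0.80 and 0.74 in Molt-3, and 0.48 and 0.29 in Molt-4. Both calls were lost under spike centring (adjusted p = 0.0882 and 0.267), where 1 of the 9 members was called higher. MT1M was not called (0.15 ± 0.12). The direct test between the 2 pairs of lines called 0 of the 9 (limma, adjusted p = 0.12 for MT1E), and MT1 members may share probes. The 28S control of treated Molt-3 and Molt-4 was also far above that of the other lines, and its part in this split was not tested.

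Of 51 lysosome and autophagy genes 25 were higher (49.0%, against 21.7% of all genes) and 2 lower (median 0.42). Under spike centring 2 were called higher and 7 lower (median -0.26). NPC1, which exports cholesterol from lysosomes, went from 7.56, 7.79, 7.32 and 7.17 to 11.66, 10.78, 9.63 and 9.27 (2.87 ± 0.32, adjusted p = 0.000261). Every treated value was above every untreated one, with the rise falling from 4.11 in CCRF-CEM to 2.10 in Molt-4. The other NPC1 probe set rose by only 0.52. The sialidase NEU1 rose by 2.52 ± 0.24, the lysosomal channel MCOLN1 by 1.33 ± 0.17 and the peptidase TPP1 by 1.05 ± 0.13. MCOLN1 and TPP1 were not called under spike centring (adjusted p = 0.302 and 0.555).

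Immediate early genes, which code for AP-1 and other quickly induced factors, gave 20 of 42 higher (47.6%, against 21.7% of all genes) and 1 lower. Their median was 0.53, and -0.16 under spike centring. JUN, the AP-1 subunit, went from 7.52, 6.94, 6.13 and 6.09 to 9.41, 9.01, 8.05 and 7.88 (1.92 ± 0.24), a similar rise in each line. SGK1, a kinase induced by serum and glucocorticoids, rose by 2.55 ± 0.36 and the survival gene IER3 by 2.33 ± 0.33. LGALS1, galectin-1, which binds cell-surface sugars, went from 8.19, 6.76, 6.04 and 5.75 to 10.58, 9.89, 10.23 and 7.73 (2.92 ± 0.29, adjusted p = 0.000144). Treated Molt-4 lay below untreated CCRF-CEM, so the groups overlapped, and the rise ran from 1.98 in Molt-4 to 4.18 in Molt-3.

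Of 46 genes of the nervous system 22 rose (47.8%, against 21.7% of all genes) and 1 fell (median 0.43, and -0.25 under spike centring). SYT11, a vesicle protein, rose by 1.5 ± 0.22 and the intermediate filament INA by 1.0 ± 0.16, both calls lost under spike centring (adjusted p = 0.16 and 0.618). Of 21 tubulins, the subunits of microtubules, 8 were higher (38.1%) and 6 lower (28.6%), against 21.7% and 20.2% of all genes. TUBB2A went from 8.65, 9.36, 7.20 and 6.96 to 12.01, 11.71, 10.99 and 10.44 (3.24 ± 0.28, adjusted p = 8.24e-05), and TUBB4A rose by 1.61 ± 0.27 and TUBB3 by 1.16 ± 0.22. Under spike centring TUBB4A was 0.93 (adjusted p = 0.0976) and TUBB3 0.48 (adjusted p = 0.455), neither called. TUBB, abundant in dividing cells, fell from 13.46 to 13.72 untreated to 11.94 to 12.75 treated (-1.20 ± 0.22). Among the other large rises were SERPINB9, which inhibits granzyme B (2.62 ± 0.27), the testis chaperone HSPA2 (2.81 ± 0.52), the acyl-CoA synthetase ACSBG1 (2.72 ± 0.35) and TCN2, which carries vitamin B12 (2.71 ± 0.31). All 4 had treated values apart from the untreated ones. The other probe sets of SERPINB9 and ACSBG1 rose by 0.69 and 1.07.

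**Figure D2:**
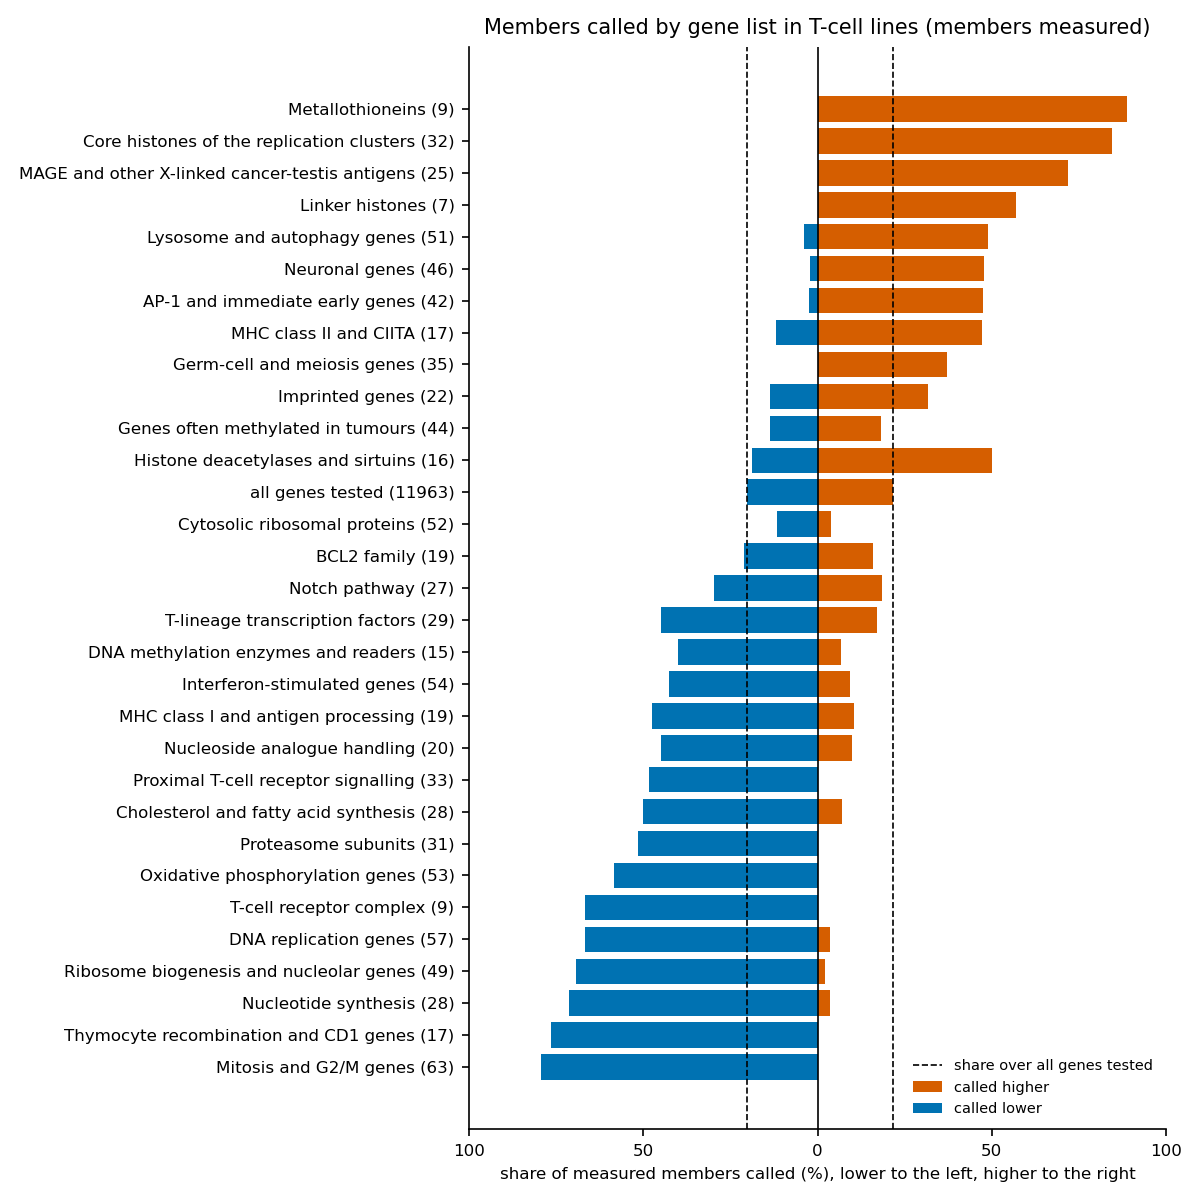
Share of measured members called higher (right) or lower (left) with treatment in the T-cell lines, for each gene list and for all genes tested, with the number of members in brackets and dashed lines at the shares over all genes. Metallothioneins and core histones reach the highest shares of rises, mitosis and thymocyte genes the highest shares of falls. Under spike centring 9 of 32 core histones, 1 of 9 metallothioneins and 8 of 25 cancer-testis antigens were called higher.

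MYC, the transcription factor that drives growth and is a main target of Notch in T-cell leukaemia, had the lowest change of all called genes. It went from 10.67, 10.42, 10.76 and 11.06 to 6.33, 7.08, 7.0 and 6.83, a fall of 15.1-fold (-3.92 ± 0.41, adjusted p = 0.000187). The untreated lines were within 0.64 of each other and the treated ones lay far below. IFI16, whose promoter is shown above, went from 11.08, 10.73, 10.62 and 10.68 to 7.44, 6.78, 6.97 and 6.42 (-3.87 ± 0.21, adjusted p = 1.35e-05). Its changes ran from -3.64 to -4.26 in the 4 lines, while the SE also holds the spread of the ALCL lines. GIMAP6, a GTPase of lymphocytes, changed by -3.87 ± 0.51, the integrin chain ITGA4 by -3.83 ± 0.42 and NMI, an interferon-induced partner of MYC and STAT proteins, by -3.78 ± 0.28.

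The 20 lowest genes also held the following. The immunoproteasome subunits PSMB10 and PSMB8 changed by -3.38 ± 0.36 and -3.31 ± 0.29, and ERAP2, which trims peptides for MHC class I, by -3.25 ± 0.46. PSMB10 fell by 2.10 in Jurkat and by 4.46 in Molt-4. The calcium-binding protein RCN1 (-2.94 ± 0.20), the co-chaperone BAG2 (-3.15 ± 0.30), the phospholipid-binding ANXA1 (-3.14 ± 0.48) and the proapoptotic BID (-3.08 ± 0.38) fell with no overlap between the groups. For TRIM14, an antiviral signalling protein, the brightest probe set fell by 3.06 and 3 of its 4 probe sets were called lower, but the other was called higher, so its direction depends on the probe set.

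The T-cell receptor complex lost most of its transcripts. Of 9 measured members 6 fell and 0 rose, with a median of -2.21, and the 6 passed 2-fold in each of the 4 lines. CD3D, an invariant signalling chain, went from 12.82, 12.70, 12.81 and 12.83 to 11.01, 8.95, 9.97 and 9.49 (-2.94 ± 0.27, adjusted p = 0.000113). Untreated lines were almost identical, while treated Jurkat was lowest and treated CCRF-CEM highest. CD3G changed by -2.26 ± 0.18 and CD3E by -1.68 ± 0.20, and each fell most in Jurkat (-2.77 and -2.43). The zeta chain CD247 changed by -2.21 ± 0.39 and the beta-chain constant gene TRBC1 by -2.54 ± 0.34, in Jurkat again by -2.76 and -3.59. TRAT1, an adaptor that stabilises the complex, changed by -3.41 ± 0.16 with a range of only -3.56 to -3.29. The pre-receptor chain PTCRA (0.34 ± 0.15) and the variable segments TRAV8-3 (0.14 ± 0.12) and TRDV3 (0.10 ± 0.11) were not called.

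Signalling next to the receptor fell in part. Of 33 measured genes 16 were lower and 0 higher (median -0.47). LCK, the kinase that phosphorylates the CD3 chains, went from 10.70, 12.12, 11.93 and 11.66 to 7.92, 8.10, 8.63 and 8.24 (-3.38 ± 0.22, adjusted p = 2.79e-05). The treated lines were closer to each other than the untreated ones. ZAP70, the kinase recruited to those chains, changed by -2.24 ± 0.26, the Ras activator RASGRP1 by -2.10 ± 0.18, the phosphatase UBASH3A, which restrains the receptor, by -2.23 ± 0.20 and the exchange factor VAV1 by -1.47 ± 0.14. UBASH3A fell by 2.17 to 2.30 in all 4 lines.

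Thymocyte genes for receptor recombination and lipid presentation fell more widely, 13 of 17 lower and 0 higher (median -1.40). RAG1, a subunit of the V(D)J recombinase, went from 8.02, 6.34, 8.77 and 7.80 to 5.06, 4.84, 4.99 and 5.12 (-2.73 ± 0.28), so lines that differed before treatment were alike after it. CD1D, which presents lipids, did the same, from 6.29, 8.32, 7.37 and 7.42 to 4.54, 4.63, 4.65 and 4.68 (-2.73 ± 0.25). The treated RAG1 and CD1D values lay within the range of the 2991 genes with the lowest mean level (3.54 to 6.21). Falls to such levels are bounded by the background of the array, and its part in the likeness was not tested. CD1E changed by -1.68 ± 0.21. ADA, the adenosine deaminase that is abundant in thymocytes, went from 11.80, 12.26, 12.51 and 12.45 to 9.09, 8.67, 8.96 and 8.77 (-3.38 ± 0.22, adjusted p = 2.79e-05).

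T-lineage transcription factors did not move as one. Of 29 measured 13 fell (44.8%, against 20.2% of all genes), 5 rose (17.2%, against 21.7%) and 11 were not called (median -0.28). BCL11B, which commits progenitors to the T lineage, went from 8.53, 9.80, 9.55 and 9.80 to 5.93, 7.25, 6.71 and 6.79 (-2.75 ± 0.17, adjusted p = 2.67e-05). TOX, needed for CD4 lineage development, changed by -3.32 ± 0.23, MYB by -3.24 ± 0.39 and IKZF1, Ikaros, by -2.02 ± 0.29 with 1 of its 4 probe sets not called. The other probe sets of TOX and MYB changed by only -0.96 and -0.49. GATA3, in contrast, was not called (-0.28 ± 0.24, adjusted p = 0.347), at -0.75 and -0.69 in CCRF-CEM and Jurkat and 0.39 and -0.09 in Molt-3 and Molt-4, and 2 of its 3 probe sets were called lower.

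Members of the Notch pathway, which is activated by mutation in much T-cell leukaemia, had 5 of 27 higher and 8 lower, 18.5% and 29.6% against 21.7% and 20.2% of all genes (median 0.07). The receptor NOTCH1 changed by -0.58 in CCRF-CEM, -0.80 in Jurkat, -1.36 in Molt-3 and -2.25 in Molt-4 (-1.25 ± 0.27, adjusted p = 0.00596). The target HEY1 rose by 1.16 ± 0.14, a call lost under spike centring (adjusted p = 0.455). Among 19 T-leukaemia oncogenes 5 fell (26.3%, against 20.2% of all genes) and 1 rose (5.26%, against 21.7%), with a median of 0.04. LMO2, a bridging factor switched on by translocation in some leukaemias, changed by -1.48 ± 0.17. MXI1, which competes with MYC for their shared partner MAX, rose by 1.07 ± 0.18 from 8.07 to 8.97 untreated to 9.29 to 9.79 treated (0.39, adjusted p = 0.541, under spike centring).

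Proliferation genes fell together but not to the same degree in each line. Of 63 mitosis and G2/M genes 50 were lower and 0 higher (median -1.17). The list median was -0.26 in CCRF-CEM, -1.28 in Jurkat, -1.28 in Molt-3 and -1.76 in Molt-4, and 1, 42, 45 and 55 members fell at least 2-fold, so CCRF-CEM stood apart. CCNA2, cyclin A2, read 9.93, 9.07, 10.40 and 10.29 untreated and 8.96, 7.77, 8.64 and 8.11 treated (-1.55 ± 0.19). The kinetochore genes CENPM (-1.48 ± 0.17) and ZWINT (-1.17 ± 0.15) fell least in CCRF-CEM, by 0.85 and 0.91. DNA replication genes gave 38 of 57 lower and 2 higher (median -0.77), among them the helicase subunit MCM7 (-1.72 ± 0.16), the polymerase subunit POLD3 (-1.28 ± 0.12) and DBF4, which activates the kinase that fires origins (-2.14 ± 0.25). The checkpoint kinase CHEK1 changed by -1.84 ± 0.17.

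**Figure D3:**
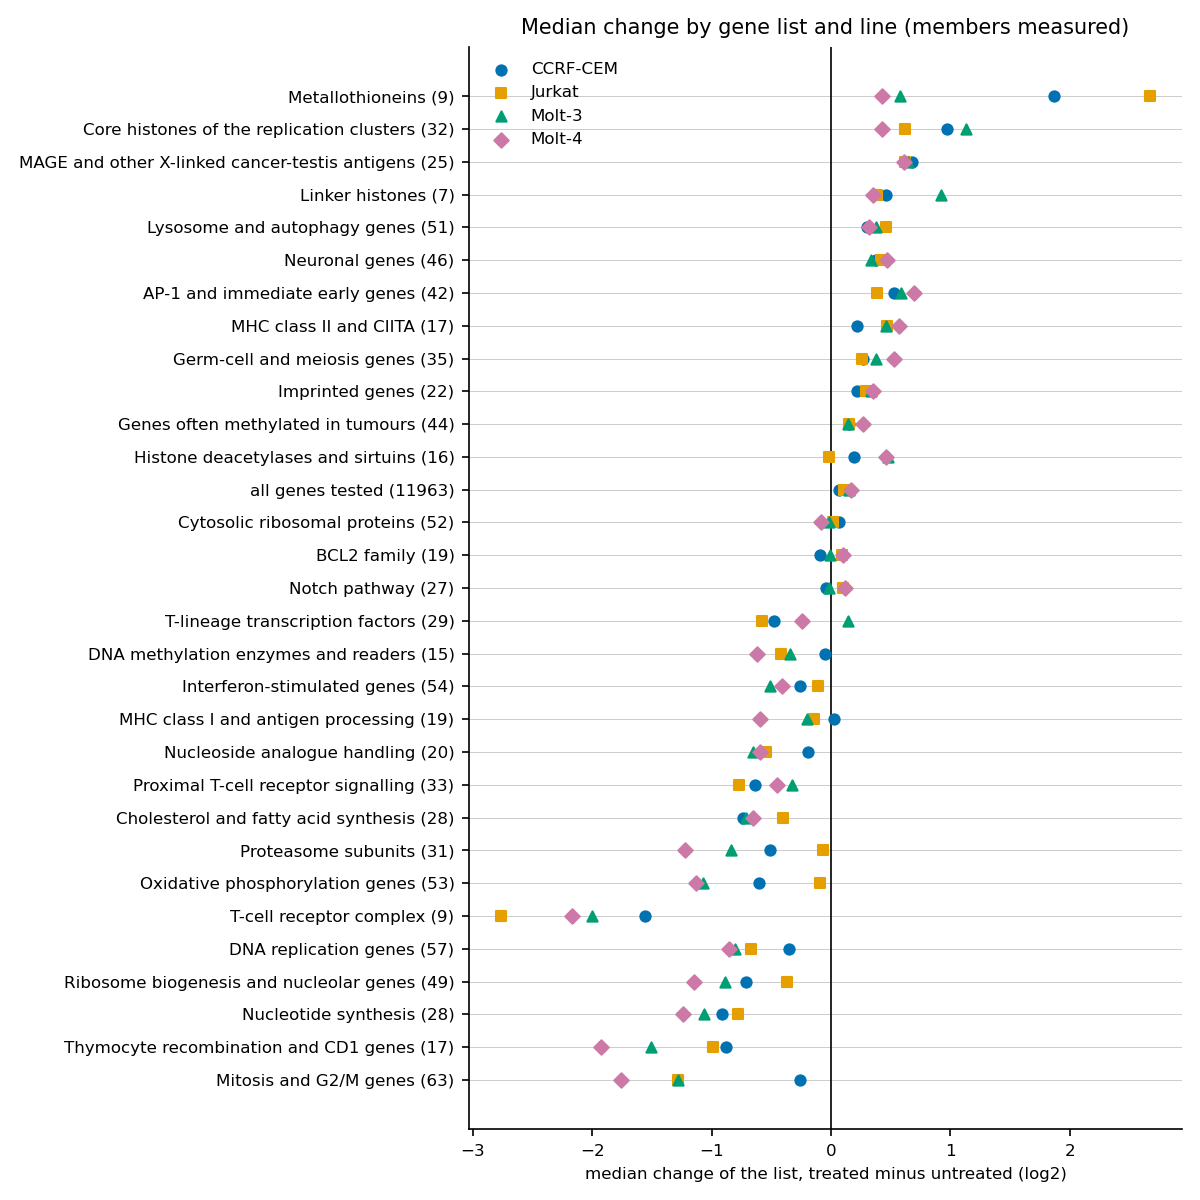
Median change (log2) of each gene list in each T-cell line, 1 symbol per line, with members measured in brackets. The line medians spread widely for metallothioneins (0.43 to 2.67) and for mitosis genes (-1.76 to -0.26), and lie close together for cancer-testis antigens (0.61 to 0.68). Single cancer-testis antigens can differ more, as MAGEA6 rose by 4.50 in CCRF-CEM and by 1.68 in Molt-4. Spike centring lowers the median of all genes to -0.54 and takes that of cancer-testis antigens to -0.07.

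Of 24 measured inhibitors and drivers of the G1 phase 5 rose (20.8%) and 7 fell (29.2%), against 21.7% and 20.2% of all genes. CDKN1A, the p21 inhibitor that TSA classically induces, went from 7.10, 7.81, 7.35 and 7.68 to 8.97, 9.40, 8.88 and 8.45 (1.44 ± 0.29, adjusted p = 0.00457). The imprinted p57 gene CDKN1C rose by 1.40 ± 0.29, from 2.47 in CCRF-CEM down to 0.70 in Molt-4. Both calls were lost under spike centring (adjusted p = 0.207 and 0.237), and that of CDKN1A without the pairing of arrays by line (adjusted p = 0.0522). The G1 kinases CDK6 (-2.04 ± 0.20) and CDK4 (-1.30 ± 0.14) and the cyclin CCNE2 (-1.0 ± 0.12) fell.

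Biosynthesis fell along with the cell cycle. Ribosome biogenesis genes, many of them MYC targets, gave 34 of 49 lower and 1 higher (median -0.75), with the RNA polymerase I factor UBTF at -1.83 ± 0.20 and the rRNA methyltransferase EMG1 at -1.97 ± 0.22. Genes of the ribosomal proteins themselves did not follow, with 6 of 52 lower and 2 higher (median -0.01, but 0.60 after scaling to a common SD and -0.69 under spike centring), RPL22 at -0.75 ± 0.15 being among the 6. Nucleotide synthesis gave 20 of 28 lower and 1 higher (median -1.02). CTPS1, the CTP synthase on which dividing lymphocytes rely, went from 10.04, 9.95, 9.58 and 9.57 to 7.83, 8.06, 7.42 and 7.47 (-2.09 ± 0.11, adjusted p = 1.35e-05), and the purine enzyme ATIC changed by -2.30 ± 0.22.

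Mitochondrial, sterol and proteasome genes gave similar counts. Oxidative phosphorylation had 31 of 53 lower and 0 higher (median -0.74), with cytochrome c1, CYC1, at -1.80 ± 0.20 and the complex I subunit NDUFS6 at -1.77 ± 0.16. By line 16 members fell at least 2-fold in CCRF-CEM, 8 in Jurkat, 29 in Molt-3 and 30 in Molt-4. Cholesterol and fatty acid synthesis had 14 of 28 lower and 2 higher (median -0.75). FDPS and HMGCS1, early enzymes of the sterol pathway, changed by -2.11 ± 0.17 and -1.63 ± 0.23, while the sterol reductase TM7SF2 rose by 1.48 ± 0.18 (adjusted p = 0.178 under spike centring). Proteasome subunits had 16 of 31 lower and 0 higher (median -0.68), with the catalytic PSMB5 at -1.70 ± 0.16.

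Among the genes on which the drugs act, methylation enzymes and readers fell in 6 of 15 cases and rose in 1 (median -0.51, against 0.14 for all genes). DNMT1, the maintenance methyltransferase that 5-aza-dC traps, was not called (-0.64 ± 0.24, adjusted p = 0.0578), at -0.08 in CCRF-CEM and -1.21 in Molt-4. Of the de novo enzymes DNMT3B rose from 7.64, 7.29, 7.94 and 7.88 to 8.69, 8.18, 9.19 and 8.55 (0.97 ± 0.14, adjusted p = 0.000689, but 0.29 and 0.649 under spike centring). DNMT3A changed by -0.76 ± 0.24, mostly through Jurkat (-1.64), and its call was lost without Jurkat (-0.47, adjusted p = 0.116), Molt-3 (0.0834) or Molt-4 (0.075). HELLS, a remodeller needed for methylation, changed by -0.69 ± 0.14 and the demethylating enzyme TET1 by -0.66 ± 0.14.

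Histone deacetylases and sirtuins gave 8 of 16 higher and 3 lower (median 0.28, and -0.40 under spike centring). HDAC4, a class IIa enzyme, was the exception in size (-2.50 ± 0.27, adjusted p = 0.000218). It went from 8.11, 7.62, 9.13 and 9.23 to 6.10, 5.92, 5.98 and 6.07, so lines that differed before were level after treatment. These treated values lay within the range of the 2991 genes with the lowest mean level (3.54 to 6.21). Falls to such levels are bounded by the background of the array, and its part was not tested. HDAC1 was not called (-0.31 ± 0.18, adjusted p = 0.177) and HDAC2 changed by -0.86 ± 0.26, a call lost without Molt-3 or Molt-4 (adjusted p = 0.106 and 0.126). HDAC3 (0.62 ± 0.18), the tubulin deacetylase HDAC6 (0.64 ± 0.12) and SIRT7 (0.93 ± 0.18) rose, but under spike centring all 3 calls were lost. Their values there were -0.06, -0.04 and 0.25 (adjusted p = 0.921, 0.946 and 0.688). HDAC3 was not called without Jurkat or Molt-3 (adjusted p = 0.0843 and 0.0611). Of the 3 HDAC6 probe sets 1 was called higher and 2 were not called.

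Enzymes that handle nucleoside drugs fell in 9 of 20 cases (45.0%, against 20.2% of all genes) and rose in 2 (10.0%, against 21.7%), with a median of -0.42. DCTD, which deaminates deoxycytidylate and can inactivate 5-aza-dC monophosphate, went from 10.48, 10.01, 9.29 and 9.30 to 7.89, 7.58, 7.59 and 7.39 (-2.16 ± 0.24, adjusted p = 0.000256). The kinase CMPK1 changed by -1.77 ± 0.24 and thymidylate synthase TYMS by -1.5 ± 0.19, the latter from 1 of its 2 probe sets.

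Genes of cell death gave no common direction. BCL2 family members were higher in 3 of 19 cases and lower in 4, close to the shares over all genes. BCL2 (0.23 ± 0.15) and MCL1 (0.19 ± 0.16), both antiapoptotic, were not called, whereas BCL2L1 (-1.20 ± 0.19) and the mitochondrial BCL2L13 (-1.22 ± 0.12) fell along with BID. The death receptor TNFRSF10B, which binds TRAIL, went from 6.90, 7.50, 6.24 and 6.87 to 9.66, 9.83, 7.99 and 8.19 (2.04 ± 0.23, adjusted p = 0.000256). Its partners downstream fell, the adaptor FADD by 1.04 and the effector caspase CASP6 by 2.54 on the log2 scale. Targets of p53 gave 4 of 25 higher and 5 lower, 16% and 20%, near the 21.7% and 20.2% of all genes.

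Interferon-stimulated genes fell more often than they rose, 23 of 54 (42.6%) against 5 (9.26%), with a median of -0.36. Of all genes 20.2% fell and 21.7% rose. IFITM1, which restricts viral entry, went from 11.59, 9.35, 10.16 and 10.08 to 9.12, 6.44, 7.59 and 7.54 (-2.62 ± 0.16, adjusted p = 2.34e-05), and the regulator IRF1 changed by -1.14 ± 0.11. CXCL11, an interferon-induced chemokine that is not on that list and was named for its departure in Jurkat, rose by 3.33 in CCRF-CEM and 4.59 in Jurkat but by 1.03 in Molt-3 and 0.69 in Molt-4 (2.41 ± 0.60). MHC class I and antigen processing genes had 9 of 19 lower (47.4%, against 20.2% of all genes) and 2 higher (10.5%, against 21.7%), 8 of the 9 at least 2-fold. MHC class II genes had a median of 0.53, and of -0.15 under spike centring, where 0 were called higher. Of the 17 measured 8 were higher (47.1%) and 2 lower (11.8%), against 21.7% and 20.2% of all genes. Those 2 were RFXANK (-1.0 ± 0.15) and RFXAP (-0.80 ± 0.16), subunits of the factor that switches class II promoters on.

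Treatment went with smaller differences between the lines in some genes and larger ones in others. Before treatment 27 genes ranged over at least 4 log2 units across the 4 lines and after it 2 did, with 0 in both sets. The median range of the 27 went from 4.64 to 2.1, while that of all genes went from 0.40 to 0.57. Genes 4-fold apart between CCRF-CEM and Jurkat fell from 144 to 39, and between CCRF-CEM and Molt-4 from 118 to 99. Between Molt-3 and Molt-4 they were 2 and then 3. Over all genes the SD of the difference rose in each pair with Molt-4, as from 0.5 to 0.617 with CCRF-CEM. In the other pairs it fell, as from 0.557 to 0.441 between CCRF-CEM and Jurkat. The SD over genes was lower on treated arrays (1.5 to 1.73, against 1.82 to 1.87), and its part here was not tested. The 27 genes were chosen for their range before treatment, so these counts are a description.

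Genes that differed between the Molt lines and the other pair give examples. A test of the difference in change between the pairs called 16 of 11963 genes (0.134%), 3 with the higher change in the Molt lines and 13 with the lower, and 1270 passed an unadjusted p of 0.05. DNTT, the terminal transferase that adds bases at V(D)J joints, went from 6.50, 6.10, 11.53 and 11.38 to 5.62, 5.76, 6.54 and 6.29, a change lower by 4.43 in the Molt lines (adjusted p = 0.00058). Its high expression in the Molt lines was almost gone after treatment. MAL, a raft protein of T cells, went from 6.16, 7.76, 12.14 and 12.26 to 6.18, 6.70, 7.98 and 8.08, and the lectin-like CLEC2B and the mannose receptor MRC1 also lost their Molt-line level (differences in change of -3.65, -2.56 and -2.50). NINJ2, an adhesion protein, had the same shape (11.36 and 11.02 to 7.35 and 7.27 in the Molt lines) but its difference of -3.27 was not called (adjusted p = 0.068).

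Other differences narrowed through the lines where a gene was low or through the other pair. ATP6V0E2, a proton pump subunit, went from 6.45 and 6.34 to 8.67 and 8.58 in the Molt lines and from 9.78 and 9.67 to 9.46 and 9.24 in CCRF-CEM and Jurkat. ARHGAP29 went from 5.32 and 5.46 to 7.73 and 8.58 in CCRF-CEM and Jurkat and from 8.20 and 7.89 to 7.94 and 7.78 in the Molt lines. The phosphatase PTPN7 went from 10.02 and 10.05 to 7.75 and 7.09 in CCRF-CEM and Jurkat and from 7.86 and 7.63 to 7.75 and 7.81 in the Molt lines. GSPT2, a translation termination factor, changed by -1.44 and -1.38 in the first pair and by 0.92 and 1.17 in the Molt lines. In contrast the core histone H2BC9 and clusterin, CLU, a secreted chaperone, became different: CLU went from 6.00 and 5.71 to 8.82 and 8.13 in CCRF-CEM and Jurkat, but from 5.81 and 5.71 to 6.31 and 6.10 in the Molt lines (difference -2.17, adjusted p = 0.026). Leaving out CCRF-CEM left 3 of the 16 calls in number, and leaving out Molt-3 or Molt-4, which leaves a pair with 1 line assumed to vary like the others, left 1 each. The 28S control differed between the same pairs, so line and array quality cannot be told apart here.

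Some changes belonged to 1 line. In CCRF-CEM the homeobox gene NKX2-5, which is activated by translocation in some T-cell leukaemias, went from 10.29 to 6.66 while the other lines started at 5.62 to 6.81 and ended at 5.73 to 5.81. VAMP8, a vesicle fusion protein, and the zinc finger gene ZNF423 likewise went from 9.52 to 6.73 and from 9.50 to 7.10 in that line. NAALAD2, a peptidase, went from 3.85 to 9.19 in CCRF-CEM, from 4.01 to 5.80 in Jurkat, and changed by 0.28 and 0.30 in the Molt lines. Its mean change of 1.93 was called only narrowly (adjusted p = 0.0425) and was 0.79 without CCRF-CEM (adjusted p = 0.0715), and the call was also lost without Jurkat (0.0884) or any 1 of the ALCL lines (0.0522 to 0.0544). In Jurkat the microfilament-associated GAS2 went from 8.32 to 4.30, the level of the other lines (4.03 to 4.13 untreated). These genes were picked for their departure in 1 array pair, so no test is given for it.

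**Figure D4:**
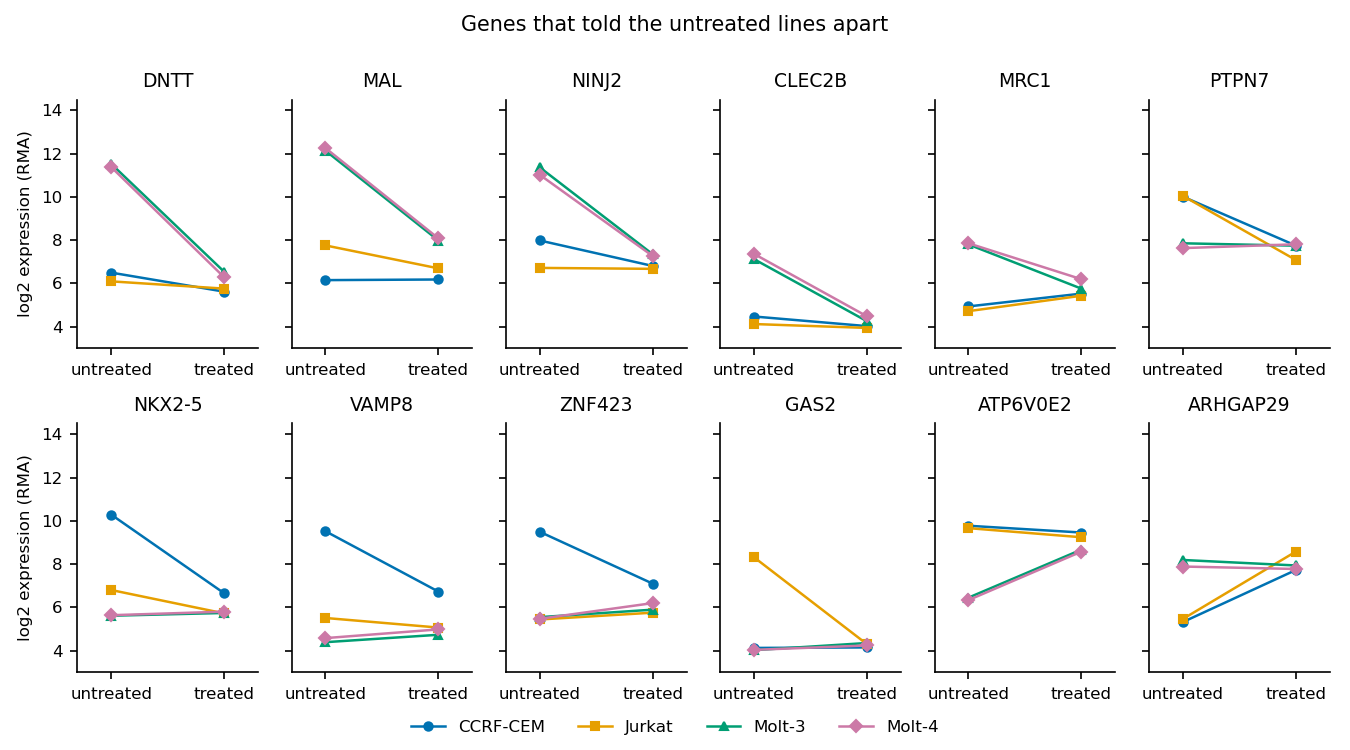
Log2 expression (RMA) in untreated and treated T-cell lines for 12 genes chosen for differences between lines, 1 point per array. In all 12 panels the treated values span less than the untreated ones, as for DNTT and GAS2. The genes shown were picked because they told the untreated lines apart. CLU and H2BC9, which became more different between lines, are not shown. Over all genes the median range went from 0.40 to 0.57.

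The response was set against that of the ALCL lines to find genes whose change differed. Of the 1417 genes changed at least 2-fold in T-cell lines 933 were also called the same way in ALCL lines, and for 104 the change differed by direct test. Over all genes the difference in change was called for 201 (1.68%), with the T-cell change higher for 68 and lower for 133. For 4 of the 9 measured members of the receptor complex the difference was called, and the list median was -2.21 in T-cell lines and 0.03 in ALCL lines. The T-cell marker mean was already lower in untreated ALCL lines (7.06 to 7.69, against 9.67 to 10.25), and the part of this in the difference was not tested. TRAT1 differed by -3.73 ± 0.23 (adjusted p = 0.000177), LCK by -3.88 ± 0.31 and CD3G by -2.49 ± 0.25. Thymocyte genes followed, with a list median of -1.40 against 0.10, and with ADA (-3.80 ± 0.31), RAG1 (-2.74 ± 0.40) and CD1D (-2.70 ± 0.35) called. The transcription factors TOX (-3.42 ± 0.32) and BCL11B (-2.62 ± 0.24) and the integrin chain ITGB2 (-2.61 ± 0.23) differed as well, and IFI16, which fell in both, fell more in T-cell lines (-2.58 ± 0.30). RCBTB2, a chromosome condensation domain protein, and ITGA4 also passed (-3.43, adjusted p = 0.042, and -3.22, adjusted p = 0.026), but RCBTB2 was not called when any 1 line but CCRF-CEM was left out (adjusted p 0.0731 to 0.141), nor ITGA4 without FE-PD, CCRF-CEM, Jurkat, Molt-3 or Molt-4 (0.055 to 0.0858).

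A pair of secreted proteins rose far more in ALCL lines. AGT, angiotensinogen, changed by -0.13, 0.57, 0.29 and 0.21 in the T-cell lines and by 4.85 on average in ALCL lines (difference -4.61 ± 0.70, adjusted p = 0.0123). SPP1, osteopontin, changed by 0.54 to 0.98 in T-cell lines and by 5.04 in ALCL lines (difference -4.33 ± 0.33, adjusted p = 0.000273). LGALS1 was the opposite, with 2.92 in T-cell lines and 0.12 in ALCL lines (difference 2.80 ± 0.41, adjusted p = 0.011).

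Another set fell in ALCL lines without a call in T-cell lines. The calcium channel subunit CACNA2D3, the interleukin 2 receptor chain IL2RA, the growth-arrest gene GAS1, the cytoskeletal adaptor CYTIP, the cytokine IL26, the cytidine deaminase APOBEC3B and the focal adhesion gene TNS3 changed by 0.58 or less on average in T-cell lines, none of them called, and by -2.22 to -3.36 in ALCL lines. Their differences ran from 2.65 to 3.71. The untreated T-cell lines had IL26 at 3.67 to 3.88 and CACNA2D3 at 4.68 to 4.96. The call of CYTIP was lost without FE-PD, JB6, SU-DHL-1, Jurkat, Molt-3 or Molt-4 (adjusted p 0.064 to 0.104) and that of GAS1 without Molt-3 or Molt-4 (0.0861 and 0.0732). Without Molt-3 there were 67 differences in place of 201, without Molt-4 there were 88, and with spike centring 64.

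**Figure D5:**
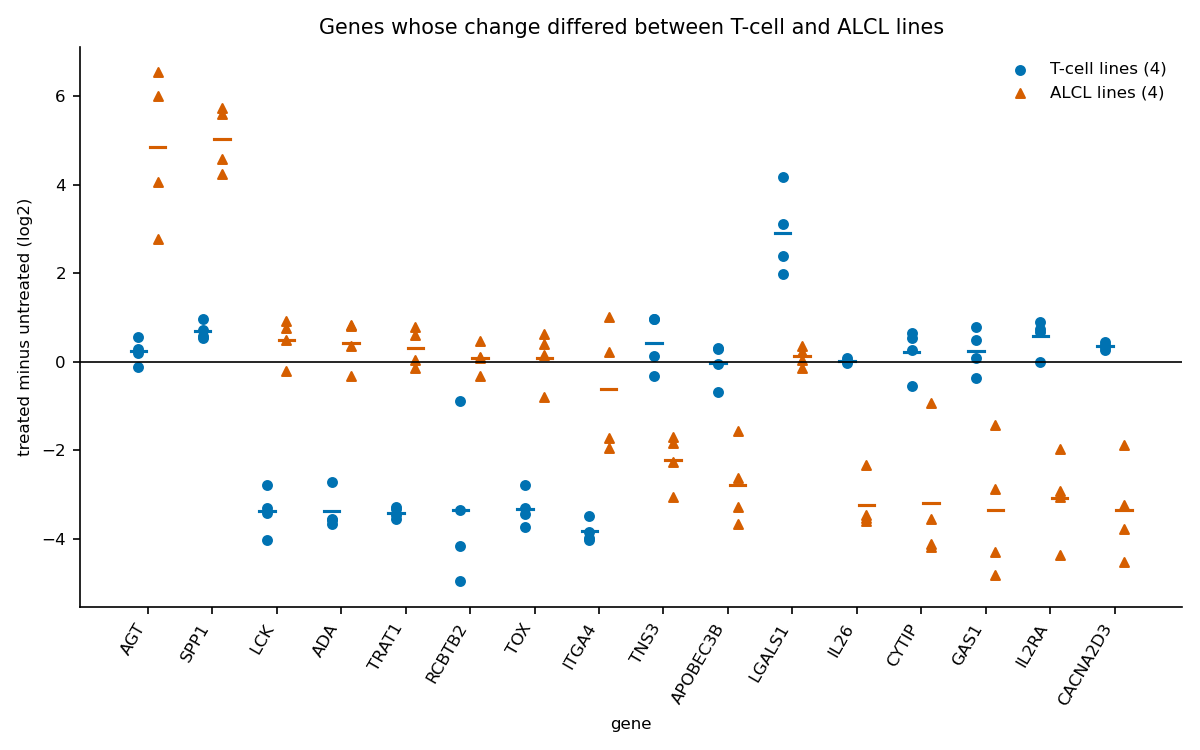
Treated minus untreated log2 value in each T-cell line (circles) and ALCL line (triangles) for the 8 highest and 8 lowest called differences between the 2 groups, with bars at the group means of 4 lines. The T-cell values lie below all ALCL values for the 8 genes on the left and above them for the 8 on the right.

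Promoter sequence was compared with the size of the change for the 9562 genes with an entry in the RefSeq table (GRCh38.p14), chromosome 8 left out. The median number of CpG in 300 bases was 24 for all genes, 26 for the 234 that rose at least 2-fold, 25 for the 966 that fell at least 2-fold and 16 for the 39 that rose at least 4-fold. Without histone genes the last group had a median of 21 (n = 29) and the 2-fold risers 28 (n = 219), and the 10 histone genes among the 39 had 9.5. Genes with 4 or fewer CpG rose at least 2-fold in 1.01% of cases (12 of 1189). The share was 2.53% (22 of 871) at 5 to 9 CpG, 3.4% (22 of 648) at 10 to 14 and 2.21% (21 of 950) at 15 to 19. It was 2.12% (27 of 1271) at 20 to 24 and 2.81% (130 of 4633) at 25 or more. The median expression level differed between these classes too, from 6.28 at 4 or fewer CpG to 7.77 at 25 or more. The letters TATAAA, searched on both strands anywhere in the window, were found in 8.3% of all promoters, in 14.96% of those of genes up at least 2-fold and in 14 of 39 (35.9%) at 4-fold. Without histone genes these shares were 8.07%, 11.4% and 24.1%, since 70% of core histone promoters hold the letters. CCAAT, likewise on both strands, was in 37.29% of all promoters, 50.85% at 2-fold and 66.67% at 4-fold. Leaving histone genes out gave 37.1%, 48.4% and 58.6%. Cancer-testis promoters had a median of 10 CpG, and none of 21 held TATAAA. A match is a run of letters and not a site of binding.

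By chromosome the genes that rose at least 2-fold were 2.45% of the 9546 placed by that table, chromosome 8 left out. Chromosome 6 had 4.82% (29 of 602), of which 14 were histone genes of its cluster, and the X chromosome had 4.65% (19 of 409), of which 7 were cancer-testis antigens. Chromosome 16, which carries the metallothionein cluster, had 4.18% (16 of 383). Falls of at least 2-fold ran from 6.3% on chromosome 9 to 13.9% on chromosome 5, around 10.1% overall.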

How the data were processed

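The authors deposited RMA log2 expression values, 1 column per array, for 22283 probe sets of 16 arrays. Per the submitters' processing notes, the RMA step used R 2.10.1. Which arrays were normalized together is not given in the sources used here, and the spread of the values differs between arrays. Of the probe sets 19065 carry 1 gene symbol, 1043 several and 2107 none in the platform annotation, which can be old, and 68 are controls. Each gene is represented by its probe set of highest mean, which left 11963 genes.

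All 16 arrays entered 1 model with the line as a block (limma 3.58.1, R 4.3.3, eBayes, Benjamini-Hochberg over all genes). The arrays are paired by the cell line itself: deviations of the treated and untreated array of each T-cell line from their group means correlated at 0.362, 0.489, 0.413 and 0.33. In 10 simulations of 11963 genes the model called 84.7% of 2-fold and 99.8% of 4-fold changes of the treatment effect in T-cell lines. The simulations changed a small set of genes by the same amount in every T-cell line, with independent noise. In the data 41.9% of genes were called, and the changes of Molt-3 and Molt-4 correlated at 0.931. The simulated shares therefore may not hold for the data. The number of arrays limits the precision.

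Named genes were the 20 highest and 20 lowest called genes that moved one way in the 4 lines, up to 4 members of each list by adjusted p (all members of lists of at most 12), the 8 highest and lowest called differences from ALCL lines, the 6 highest and lowest called differences of the Molt lines, 3 departures in each direction for each line, and a fixed set of drug-target and lineage genes. Not all of these are printed. The genes and lists were chosen with earlier results of these data known. Alternatives were other scalings (median, quantile, SD, and 18 spike probe sets), no block, a random block, other groups of arrays, the mean of probe sets, a filter on the lowest genes, and each line left out. Promoter windows came from the RefSeq table (GRCh38.p14), and chromosome 8 was left out of the promoter and chromosome counts. Genes of chromosome 8 stayed in the gene comparisons.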

Additional observations from a re-analysis of the deposited data

Results flagged for a closer look

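A single line lay far from the other 3 in its change for 11 of 162 genes tested. For genes drawn at random chance flags about 1 in 20 groups, or 8.1 here. Some of these genes were chosen for a departure in 1 line, GAS2 and ZNF423 among them, and others for moving one way in every line. That rate therefore does not apply, and the count is a description. In CCRF-CEM these were ADA (-2.71), CENPM (-0.85), MCL1 (0.43), PEG10 (2.01), SERPINB9 (3.41) and ZNF423 (-2.40). In Jurkat they were GAS2 (-4.02), POLD3 (-1.55) and RASGRP1 (-2.50), and in Molt-4 H2AC14 (0.77) and TRAV8-3 (0.38). GAS2 and ZNF423 were expressed in that line alone before treatment.

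The change differed between T-cell and ALCL lines by direct test for 35 named genes, given as T-cell minus ALCL change. The T-cell change was lower for AGT (-4.61), SPP1 (-4.33), LCK (-3.88), ADA (-3.80), TRAT1 (-3.73), RCBTB2 (-3.43), TOX (-3.42), ITGA4 (-3.22), RAG1 (-2.74), CD1D (-2.70), UBASH3A (-2.64), BCL11B (-2.62), ITGB2 (-2.61), IFI16 (-2.58), CD3D (-2.51), CD3G (-2.49), RASGRP1 (-2.14), CD3E (-1.93), CD1E (-1.74), LMO2 (-1.49), CDK6 (-1.36), IRF1 (-1.32), VAV1 (-1.15) and BCL2L13 (-0.93). It was higher for CACNA2D3 (3.71), IL2RA (3.66), GAS1 (3.61), CYTIP (3.42), IL26 (3.25), LGALS1 (2.80), APOBEC3B (2.76), TNS3 (2.65), TYMS (1.80), MCM7 (1.09) and ZWINT (1.03). MCM7, ZWINT and TYMS fell in T-cell lines and fell further in ALCL lines. The calls of MCM7, ZWINT, CDK6 and BCL2L13 were lost on leaving out most single lines, with adjusted p up to 0.172, 0.173, 0.151 and 0.113. The calls of VAV1 (0.0969 and 0.0732) and LMO2 (0.0694 and 0.0611) were lost without Molt-3 or Molt-4, and that of CD1E (0.0715) without Molt-4.

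The change in the Molt lines differed from that in CCRF-CEM and Jurkat for DNTT (-4.43), MAL (-3.65), ARHGAP29 (-2.94), CLEC2B (-2.56), H2BC9 (-2.55), MRC1 (-2.50), CLU (-2.17), PTPN7 (2.64), ATP6V0E2 (2.60) and GSPT2 (2.45). Apart from DNTT, each of these calls was lost without Molt-3 and without Molt-4. The 28S control probe set, outside the gene comparisons, read 14.26 in treated Molt-3 and 14.16 in treated Molt-4.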

How the results depend on the processing

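The values of 162 named genes and of the gene lists were recomputed under each alternative, giving 6188 values, of which 5405 were kept: a gene's value by direction and side of the threshold, a list's count by staying within 1.5 times, and a list's median by its sign and the spread between lines. Among 137 called effects 28 lost their call under spike centring, 23 with CCRF-CEM and Jurkat only and 11 without the replicate block. The number of genes called higher (2601) was 1372 with the lowest genes removed, 1707 with median centring, 63 with spike centring, 1640 with SD scaling, 370 with CCRF-CEM and Jurkat only, 1657 with Molt-3 and Molt-4 only, and 939 to 2953 with 1 line left out. The number called lower (2417) was 741 with CCRF-CEM and Jurkat only and 1549 to 2540 with 1 line left out. At 2-fold the number higher (292) was 450 with quantile normalization and 63 with spike centring, and the number lower (1125) was 2943 with spike centring and 608 with CCRF-CEM and Jurkat only. The paired fit was also run with no block, which called 1868 genes higher and 1774 lower. Differences from ALCL lines (201) were 62 with no block, 64 with spike centring, 38 with CCRF-CEM and Jurkat only and 67 to 195 with 1 line left out. Differences of the Molt lines (16) were 40 with T-cell lines alone, 10 with the lowest genes removed, 224 with spike centring and 1 to 23 with 1 line left out. Some directions turned: GSPT2 was 1.04 and PTPN7 0.03 with Molt-3 and Molt-4 only, HDAC3 was -0.06 and HDAC6 -0.04 with spike centring, and another probe set by itself gave 0.77 for TRIM14 and 0.28 for TYMS. The fits with fewer lines have fewer arrays, and otherwise the cause was not tested. Falls of low genes are bounded by the background of the array.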
